A study of Mus musculus with 6 samples.

Results

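Interferon-stimulated genes were followed in HK-2 cells with and without overexpression of USAG-1. They are 42 human genes, the interferon-induced antiviral genes and 3 of their STAT and IRF regulators, found in the table by their symbols. All 42 were among its 39234 genes, and 41 were among the 18188 genes with enough counts to be tested. XAF1, a proapoptotic interferon-induced protein, was not tested. Its counts were 8, 17 and 7 in the controls and 0, 6 and 9 with USAG-1 overexpression.

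HK-2 is an immortalized line from human proximal tubule, and RNA was sequenced from 3 control samples (labelled Cont) and 3 samples with USAG-1 overexpression (labelled USAG1_OE). All 6 carry the genotype label WT, and neither a treatment nor a time is labelled. Mouse is the organism given in the labels, but both the line and the Ensembl identifiers of the table are human. In the methods of the study, cells were made to overexpress proteins by transient plasmid transfection, the line was not authenticated by its short tandem repeats, and the labels do not say what plasmid the controls received. The methods speak of biological replicates for most experiments without naming this one, and the labels do not say whether the samples were separate cultures, so the p-values measure the spread between these samples, which may be technical. The control libraries 1, 2 and 3 held 41236194, 48699471 and 44611384 counted reads, and the libraries with USAG-1 overexpression held 45448720, 43837891 and 42782931. Levels are given in CPM, counts relative to the library size after TMM scaling, on which scale 3 counts, the limit that a count of 0 allows, equal 0.0608 to 0.0719 CPM in a library. These limits cover counting error only.

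Cells that sense viral nucleic acid secrete interferons, which bind receptors on the same and neighbouring cells and act through JAK kinases. Type I and III interferons activate a complex that contains STAT2 and IRF9 and switches on most of the genes described here, while interferon gamma acts partly through IRF1. Tubular epithelial cells respond to both kinds of interferon, and their products block viral RNA, translation, entry or budding.

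USAG-1 is the product of SOSTDC1 (ENSG00000171243, chromosome 7, 16461481 to 16530580, hg38). SOSTDC1 had 79, 80 and 60 counts in the controls and 5072, 3907 and 4438 counts in the USAG-1-overexpressing libraries, so every library carried its labelled group's level. Of 16 kidney epithelial markers in the table, 11 were tested. By the edgeR test described below, 3 were higher (27.3%), beside 8.95% of all genes, and 1 was lower (9.09%), beside 6.91%. Those higher were PAX8, CDH2 and GGT1. CDH6, the marker called lower, was at 224, 228 and 168 CPM in the controls and at 154, 156 and 141 CPM with USAG-1 overexpression. PAX8, a renal transcription factor, was at 375 ± 8.57 CPM (SD, n = 3) in controls and 448 ± 7.16 CPM (SD, n = 3) with USAG-1 overexpression. The endocytic receptor of the proximal tubule, LRP2, had 0 counts in all 6 libraries. Its partner CUBN had at most 15 counts in a library and the water channel AQP1 at most 8.

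Control replicate 3 stood apart from the other libraries. On the second principal component of all genes tested, which held 21.3% of the variance, it scored -54.3, and the other 5 libraries scored between -16.4 and 28.2. Among the 3 controls it had the lowest level of 25 of the 41 members, control replicate 1 of 9 and control replicate 2 of 7. How often it was the lowest control over all genes was not counted. Counts are therefore given below with and without it.

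A group of interferon-stimulated genes was higher with USAG-1 overexpression, and a smaller group was lower. IFI44, IFIT3, OAS3, IFIT1, OASL, HERC5, OAS1, USP18, IFIT2 and RSAD2 rose, by log2 fold changes of 0.37 to 0.91. GBP2, IFIT5 and MX1 fell, against the direction of that larger group. In edgeR's quasi-likelihood test, with p-values adjusted by Benjamini-Hochberg over the 18188 genes and a threshold of 0.05, 10 of 41 members were thus higher (24.4%) and 3 were lower (7.32%). Of all genes tested, 8.95% were higher and 6.91% were lower. Every USAG-1-overexpressing library was above every control in 13 members (31.7%), against 19.4% of all genes, and below every control in 8 members (19.5%), against 18.1%. The shares for lower members were thus near those of all genes. The median log2 fold change was 0.10 over the 41 members and -0.02 over all genes tested. The summed level of the members was 1326, 1323 and 1264 CPM in the controls and 1417, 1441 and 1414 CPM in the USAG-1-overexpressing libraries.

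These counts moved when 1 library was left out. Without control replicate 3, 13 members were higher, beside 15.8% of the genes tested, and 6 were lower, beside 11.2%, the same 10 and 3 among them. The members added were IFITM3, ISG15 and DDX60 among those higher and PARP14, DTX3L and TRIM22 among those lower. Without control replicate 1, 5 were higher, beside 5.77% of the genes tested, and 1, GBP2, was lower, beside 4.41%. Without control replicate 2, 7 were higher, beside 5%, and 0 lower, beside 3.75%, by edgeR's test, in which 8 members were lower at an unadjusted p under 0.05. Without USAG-1-overexpressing replicate 1, 2 or 3, 5 were higher each time, beside 3.31% to 4.01% of the genes tested, and 0 lower, beside 2.67% to 3.16%. In these 3 fits 6, 6 and 7 members were lower at an unadjusted p under 0.05, and no other tool was run on any of these subsets. IFI44, IFIT3, OAS3, IFIT1 and OASL were higher under all 14 alternatives to the processing. HERC5 and GBP2 passed the threshold in 10 of the 14, OAS1 and MX1 in 8, IFIT2 and USP18 in 7, and RSAD2 and IFIT5 in 6. Scaling by library sizes alone ended the calls of IFIT2, RSAD2 and IFIT5, limma-voom that of RSAD2, and testing without a filter on low counts those of IFIT2, RSAD2, USP18, MX1 and IFIT5. None of these 13 genes changed sign in any alternative.

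**Figure D1:**
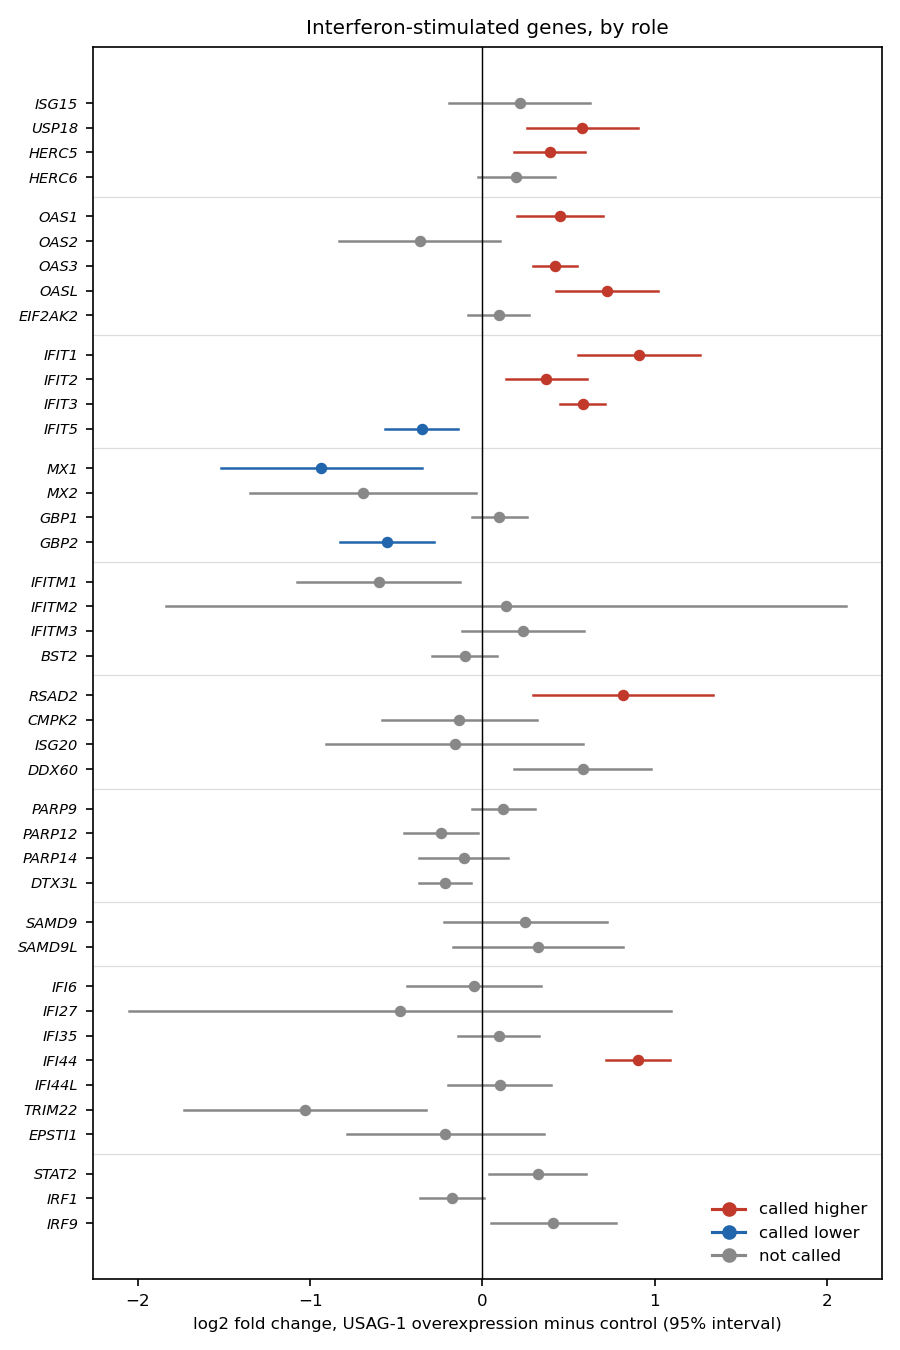
Log2 fold change of the 41 tested interferon-stimulated genes, USAG-1 overexpression minus control, by role from the ISG15 enzymes at the top to the STAT and IRF regulators at the bottom. Points are edgeR estimates from 3 libraries a group and lines their 95% intervals, with the 10 members called higher in red, the 3 called lower in blue and 28 not called in grey.

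The IFIT proteins bind foreign RNA and block its translation, and their genes lie side by side on chromosome 10. All 4 passed the threshold, 3 higher and 1 lower. IFIT3 (ENSG00000119917, 89327307 to 89342166) was at 57.1, 57.3 and 55.3 CPM in the controls and at 81.9, 85.0 and 87.2 CPM in the USAG-1-overexpressing libraries. The groups were far apart beside their spread, and the log2 fold change was 0.58 (SE 0.06, edgeR adjusted p = 0.000807). IFIT1 (ENSG00000185745, 89392546 to 89406487), which recognizes RNA without a self cap, was at 6.87, 6.48 and 5.11 CPM in the controls and at 11.7, 12.8 and 10.1 CPM with USAG-1 overexpression. No library of IFIT1 crossed into the other group, and it rose by 0.91 on the log2 scale (SE 0.15, edgeR adjusted p = 0.00701). IFIT2 (ENSG00000119922, 89283694 to 89309271) was at 23.3, 22.9 and 18.4 CPM in the controls and at 29.3, 27.2 and 27.0 CPM in the USAG-1-overexpressing libraries. Control replicate 3 was its lowest library, and the log2 fold change was 0.37 (SE 0.10, edgeR adjusted p = 0.0434).

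IFIT5 (ENSG00000152778, 89414568 to 89421605), the member of this family next to IFIT1, went the other way. Its level was 22.0, 20.5 and 19.9 CPM in the controls and 17.9, 15.4 and 15.6 CPM with USAG-1 overexpression. All 3 USAG-1-overexpressing libraries were below all controls, and it fell by 0.35 on the log2 scale (log2 fold change -0.35, SE 0.09, edgeR adjusted p = 0.0376). IFIT2 and IFIT5 lost the call when control replicate 1, control replicate 2 or any 1 USAG-1-overexpressing library was left out. Their log2 fold changes were then 0.34 to 0.43 and -0.42 to -0.31, and over all alternatives the adjusted p ran from 0.0154 to 0.155 for IFIT2 and from 0.0159 to 0.146 for IFIT5. IFIT1, IFIT2 and IFIT3 lie within the span of LIPA on the opposite strand, and LIPA was at 70.6 CPM in controls and 72.0 CPM with USAG-1 overexpression (log2 fold change 0.03, SE 0.07, edgeR adjusted p = 0.805).

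The oligoadenylate synthetases make the messenger that activates RNase L, and PKR, encoded by EIF2AK2, halts translation on sensing RNA duplexes. OAS1, OAS3 and OASL rose, 3 of the 5 genes of this group. OAS3 (ENSG00000111331, chromosome 12, 112938051 to 112973251) was at 177, 171 and 173 CPM in the controls and at 226, 244 and 228 CPM in the USAG-1-overexpressing libraries. Its control libraries lay close together, and the log2 fold change was 0.42 (SE 0.05, edgeR adjusted p = 0.00242). OASL (ENSG00000135114, chromosome 12, 121017763 to 121039246), which lacks synthetase activity and enhances RIG-I signalling, was at 6.95, 6.99 and 7.62 CPM in the controls and at 10.2, 12.3 and 13.0 CPM with USAG-1 overexpression. Its lowest USAG-1-overexpressing library was above its highest control, and it rose by 0.72 on the log2 scale (SE 0.13, edgeR adjusted p = 0.00842). OAS1 (ENSG00000089127, chromosome 12, 112905856 to 112933219) was at 8.81, 10.01 and 10.3 CPM in the controls and at 13.5, 13.9 and 12.5 CPM in the USAG-1-overexpressing libraries, without overlap. The log2 fold change of OAS1 was 0.45 (SE 0.11, edgeR adjusted p = 0.0268). Without control replicate 1, control replicate 2 or any 1 USAG-1-overexpressing library OAS1 was not called, at log2 fold changes of 0.39 to 0.50, and its adjusted p over all alternatives ran from 0.0108 to 0.11. OAS2 overlapped between the groups, at 2.88 to 3.35 CPM in controls and 1.97 to 2.95 CPM with USAG-1 overexpression (log2 fold change -0.36, 95% interval -0.83 to 0.10). EIF2AK2 was at 101 ± 9.34 CPM (SD, n = 3) in controls and 108 ± 3.47 CPM (SD, n = 3) with USAG-1 overexpression, and its log2 fold change of 0.09 had a 95% interval from -0.08 to 0.27.

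ISG15 is a ubiquitin-like modifier, HERC5 the ligase that attaches it to proteins, and USP18 the protease that removes it and also restrains the interferon receptor. HERC5 and USP18 rose, while ISG15 and HERC6 were not called. HERC5 (ENSG00000138646, chromosome 4, 88457119 to 88506163) was at 24.5, 29.0 and 23.5 CPM in the controls and at 33.8, 33.6 and 33.7 CPM in the USAG-1-overexpressing libraries. The latter were almost equal, and the log2 fold change was 0.39 (SE 0.09, edgeR adjusted p = 0.0226). USP18 (ENSG00000184979, chromosome 22, 18150118 to 18177397) was at 3.98, 4.11 and 3.96 CPM in the controls and at 5.97, 6.57 and 5.49 CPM with USAG-1 overexpression. Its groups did not overlap, and it rose by 0.58 on the log2 scale (SE 0.14, edgeR adjusted p = 0.0278).

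ISG15 itself was at 8.58, 9.85 and 14.1 CPM in the controls and at 13.0, 12.2 and 12.6 CPM in the USAG-1-overexpressing libraries. Control replicate 3 was its highest library, and the groups overlapped (log2 fold change 0.22, SE 0.18, edgeR adjusted p = 0.462). Without control replicate 3 ISG15 was called higher, and over all alternatives its log2 fold change ran from 0.08 to 0.46 and its adjusted p from 0.0176 to 0.819. HERC6 had a log2 fold change of 0.20 (95% interval -0.03 to 0.42). HERC5 was not called without control replicate 1 or any 1 USAG-1-overexpressing library (log2 fold change 0.36 to 0.40), and USP18 was not called without control replicate 1, control replicate 2 or any 1 of those libraries (0.51 to 0.64). Over all alternatives the adjusted p ran from 0.00472 to 0.0889 for HERC5 and from 0.0226 to 0.111 for USP18.

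Among enzymes that act on nucleotides and RNA, RSAD2 was called higher by edgeR and DESeq2 and DDX60 by DESeq2 and limma-voom. RSAD2 (ENSG00000134321, chromosome 2, 6865557 to 6898221) encodes viperin, which makes a chain-terminating nucleotide. Its level was 3.09, 3.38 and 2.27 CPM in the controls and 6.56, 4.35 and 4.54 CPM with USAG-1 overexpression. USAG-1-overexpressing replicate 1 was the highest library, and the log2 fold change was 0.82 (SE 0.23, edgeR adjusted p = 0.0448). It was not called without control replicate 1, control replicate 2 or any 1 USAG-1-overexpressing library, with log2 fold changes of 0.61 to 0.94, and its adjusted p over all alternatives ran from 0.0149 to 0.157. CMPK2, a mitochondrial nucleotide kinase whose gene overlaps RSAD2 head to head, was at 2.63, 2.63 and 1.99 CPM in the controls and at 2.20, 2.34 and 2.09 CPM with USAG-1 overexpression. CMPK2 thus overlapped between the groups (log2 fold change -0.13, 95% interval -0.58 to 0.32). DDX60, a helicase, was at 27.1, 26.2 and 16.7 CPM in the controls and at 34.9, 38.3 and 31.6 CPM in the USAG-1-overexpressing libraries. Those groups did not overlap, but DDX60 missed the threshold in edgeR's test (log2 fold change 0.58, SE 0.17, edgeR adjusted p = 0.0565). DDX60 was called higher in 4 of the 14 alternatives, DESeq2's Wald test, limma-voom and the fit without control replicate 3, its lowest library, among them, and over all alternatives its log2 fold change ran from 0.40 to 0.70 and its adjusted p from 0.00391 to 0.194. ISG20, an exonuclease, had a log2 fold change of -0.16 (95% interval -0.91 to 0.59).

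IFI44 had the smallest adjusted p of all members. IFI44 (ENSG00000137965, chromosome 1, 78649796 to 78664078) was at 21.1, 22.0 and 19.0 CPM in the controls and at 40.7, 38.4 and 37.0 CPM in the USAG-1-overexpressing libraries. The groups were well apart, with a log2 fold change of 0.90 (SE 0.08, 95% interval 0.72 to 1.09, edgeR adjusted p = 0.000567). IFI44L, its paralog next to it, was at 29.3, 27.9 and 21.2 CPM in the controls and at 29.7, 29.5 and 24.9 CPM with USAG-1 overexpression. Those groups overlapped, and the log2 fold change of IFI44L was 0.10 (95% interval -0.20 to 0.40). TRIM22, a ubiquitin ligase that restricts viruses, was at 4.72, 2.90 and 3.03 CPM in the controls and at 2.37, 1.65 and 1.18 CPM with USAG-1 overexpression. Every USAG-1-overexpressing library was below every control, but TRIM22 missed the threshold in edgeR's test (log2 fold change -1.03, SE 0.31, edgeR adjusted p = 0.0565). It was called lower in 4 of the 14 alternatives, DESeq2's Wald test, the filter of at least 10 counts in every library and the fit without control replicate 3 among them, and over all alternatives its log2 fold change ran from -1.32 to -0.77 and its adjusted p from 0.0187 to 0.178. IFI6, IFI27, IFI35 and EPSTI1 overlapped between the groups, with log2 fold changes of -0.48 (IFI27, at most 19 counts in a library) to 0.09 (IFI35).

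**Figure D2:**
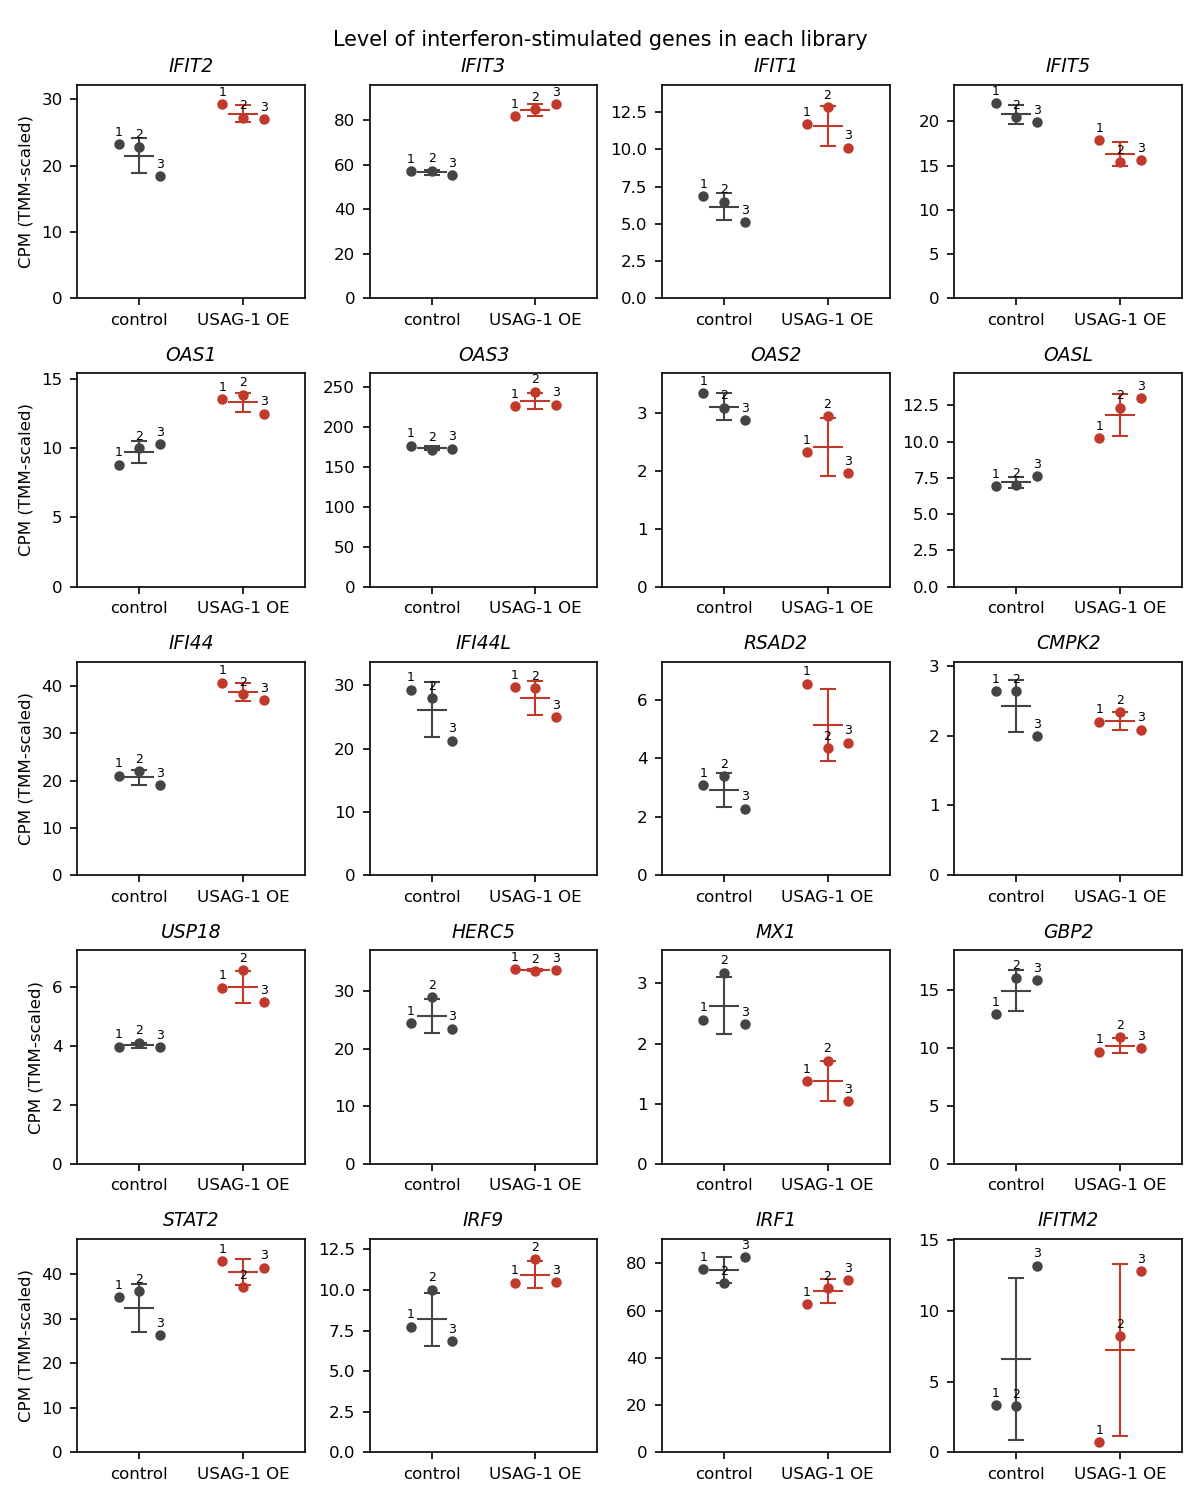
Level of 20 interferon-stimulated genes in each library, in CPM on the TMM scale, with points numbered by replicate and the mean and SD of 3 libraries drawn as crossbars. IFI44 stood at 37.0 to 40.7 CPM with USAG-1 overexpression against 19.0 to 22.0 CPM in controls, whereas MX1 stood at 1.04 to 1.72 against 2.32 to 3.18 CPM.

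The MX and GBP proteins are large GTPases that assemble on viral capsids or on membranes of pathogen vacuoles, and 2 of these 4 fell. GBP2 (ENSG00000162645, chromosome 1, 89106132 to 89150456) was at 12.9, 16.0 and 15.8 CPM in the controls and at 9.65, 10.9 and 9.96 CPM in the USAG-1-overexpressing libraries. Its groups did not overlap, with a log2 fold change of -0.55 (SE 0.12, edgeR adjusted p = 0.0181). MX1 (ENSG00000157601, chromosome 21, 41420020 to 41459637) was at 2.40, 3.18 and 2.32 CPM in the controls and at 1.37, 1.72 and 1.04 CPM with USAG-1 overexpression. It fell in all 3 libraries relative to the lowest control, with a log2 fold change of -0.93 (SE 0.25, edgeR adjusted p = 0.041). MX2 was at 1.17, 1.68 and 2.11 CPM in the controls and at 1.09, 1.10 and 0.881 CPM with USAG-1 overexpression, and was not called (log2 fold change -0.69, SE 0.29, edgeR adjusted p = 0.143). GBP1 was at 44.6 ± 1.33 CPM (SD, n = 3) in controls and 47.8 ± 3.05 CPM (SD, n = 3) with USAG-1 overexpression, and its log2 fold change of 0.10 had a 95% interval from -0.06 to 0.26. GBP2 was not called without control replicate 2 or any 1 USAG-1-overexpressing library (log2 fold change -0.60 to -0.50), and MX1 without control replicate 1, control replicate 2 or any 1 of those libraries (-1.12 to -0.77). Over all alternatives the adjusted p ran from 0.00239 to 0.081 for GBP2 and from 0.023 to 0.136 for MX1.

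Transcripts of T and NK cells moved in the same direction as GBP2, MX1 and IFIT5. Of 17 T and NK cell markers tested, 16 were lower with USAG-1 overexpression by edgeR's test (94.1%), beside 6.91% of all genes. Their summed level was 138, 130 and 150 CPM in the controls and 44.6, 37.6 and 34.6 CPM in the USAG-1-overexpressing libraries. IL7R was the marker not called, and had a positive log2 fold change, at 21.9, 21.0 and 17.8 CPM in the controls and 27.6, 23.6 and 21.9 CPM with USAG-1 overexpression (log2 fold change 0.27, SE 0.12, edgeR adjusted p = 0.161). The other 16 summed to 116, 109 and 133 CPM in the controls and to 17.01, 14.01 and 12.70 CPM with USAG-1 overexpression, and none was at 0 in all libraries. TRAC, the constant part of the T cell receptor, had 410, 486 and 469 counts in the controls and 40, 13 and 11 with USAG-1 overexpression. An epithelial line is not known to make T cell receptor transcripts, and where they came from was not tested, so each level given here is that of a whole library and may not be of HK-2 cells alone. In bulk RNA, fewer cells of a type and less RNA per cell cannot be told apart. The 37 mitochondrially encoded genes were all lower, and their share of the counts was 5.59%, 5.48% and 4.8% in the controls and 1.55%, 1.5% and 1.55% with USAG-1 overexpression. With these genes left out of the library sizes, 10 members were higher, beside 9.15% of the genes tested, and 3 lower, beside 6.56%. The part of the T and NK cell transcripts in the lower level of MX1, GBP2 and IFIT5 was not tested.

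The IFITM proteins stop viruses from fusing with membranes, and BST2, or tetherin, holds budding virus at the cell surface. By edgeR, 0 of these 4 genes were called in either direction, and 1 had an unadjusted p under 0.05. By DESeq2's Wald test 1 was called, lower, and by limma-voom 0. That gene was IFITM1, at 7.43, 6.91 and 9.97 CPM in the controls and at 4.31, 5.08 and 6.60 CPM with USAG-1 overexpression. All its USAG-1-overexpressing libraries were below the lowest control (log2 fold change -0.60, SE 0.21, edgeR adjusted p = 0.0877), and its adjusted p over all alternatives ran from 0.0418 to 0.25. IFITM3 (log2 fold change 0.24, 95% interval -0.12 to 0.59) and BST2 (-0.10, 95% interval -0.29 to 0.09) overlapped between the groups. Reads of IFITM1, IFITM2 and IFITM3 are hard to assign because these neighbouring paralogs are nearly identical in parts, so their values are uncertain.

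IFITM2 varied most within the groups. It was at 3.33, 3.26 and 13.2 CPM in the controls and at 0.741, 8.20 and 12.8 CPM in the USAG-1-overexpressing libraries. Control replicate 3 and USAG-1-overexpressing replicates 2 and 3 were thus high, and the log2 fold change of IFITM2 had a 95% interval from -1.84 to 2.11. S100A8 and S100A9, calcium-binding proteins abundant in neutrophils and monocytes, were highest in the same 3 libraries. S100A8 was at 2.87, 1.93 and 23.0 CPM in the controls and at 2.22, 16.2 and 9.96 CPM with USAG-1 overexpression, and S100A9 at 13.7, 9.73 and 47.9 and at 8.08, 28.5 and 33.2 CPM. Other myeloid cell markers did not share this pattern. Among the controls, CD14, CSF1R and ITGAM were lowest in control replicate 3. Among the USAG-1-overexpressing libraries, LYZ, CD14, CSF1R, FCN1 and ITGAM were lowest in replicate 2. CD68, the myeloid cell marker with the highest mean level in CPM, was called higher, and LYZ and ITGAM were called lower. Of the 10 myeloid cell markers tested, 1 was thus higher (10%), beside 8.95% of all genes, and 2 were lower (20%), beside 6.91%. Their summed level was 146, 126 and 211 CPM in the controls and 174, 185 and 197 CPM with USAG-1 overexpression, and none was at 0 in any library. The part of myeloid transcripts in the spread of IFITM2 was not tested.

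**Figure D3:**
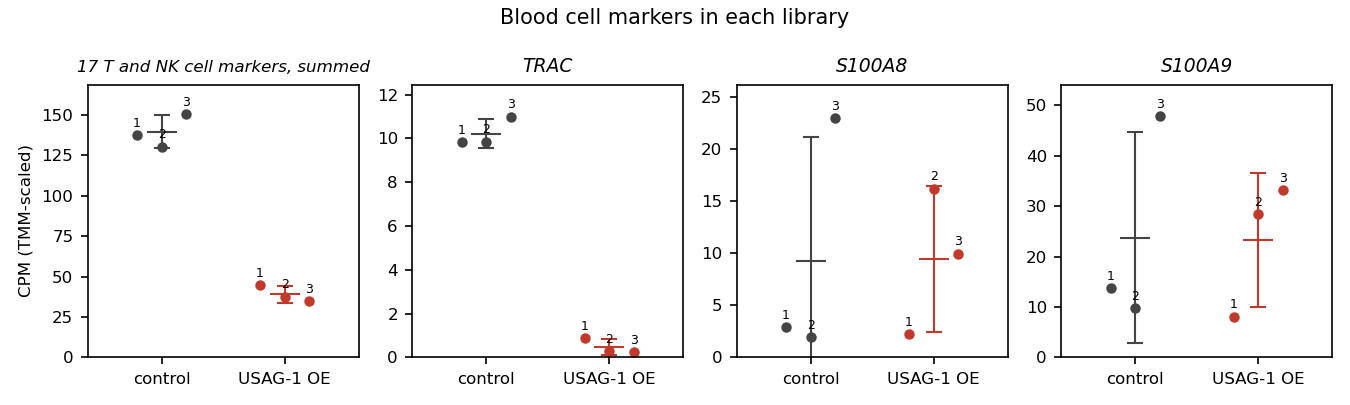
Summed level of 17 T and NK cell markers and levels of TRAC, S100A8 and S100A9 in each library, in CPM on the TMM scale, with points numbered by replicate and the mean and SD of 3 libraries drawn as crossbars. The T and NK cell sum was 130 to 150 CPM in controls and 34.6 to 44.6 CPM with USAG-1 overexpression, and S100A8 was high in control replicate 3 and USAG-1-overexpressing replicates 2 and 3.

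PARP9 and DTX3L form a ubiquitin ligase complex that supports interferon signalling, and PARP12 and PARP14 are related mono-ADP-ribosyltransferases. Of these 4, 0 were called by edgeR, in which 2 had an unadjusted p under 0.05. By DESeq2's Wald test DTX3L was called, lower, and by limma-voom 0 were called. DTX3L was at 130, 123 and 117 CPM in the controls and at 112, 102 and 104 CPM in the USAG-1-overexpressing libraries. These did not overlap, and the log2 fold change was -0.22 (SE 0.07, edgeR adjusted p = 0.0612). DTX3L and PARP14 were called lower without control replicate 3, and over all alternatives the adjusted p ran from 0.00619 to 0.218 for DTX3L and from 0.0126 to 0.896 for PARP14. PARP12 was at 44.4, 46.3 and 53.8 CPM in the controls and at 42.9, 37.0 and 42.4 CPM with USAG-1 overexpression. It too was below every control without passing the threshold (log2 fold change -0.24, SE 0.09, edgeR adjusted p = 0.126). PARP9, which shares its start region with DTX3L, was at 43.5 ± 4.16 CPM (SD, n = 3) in controls and 47.4 ± 0.878 CPM (SD, n = 3) with USAG-1 overexpression (log2 fold change 0.12, 95% interval -0.06 to 0.30).

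SAMD9 and SAMD9L are neighbouring genes whose products restrict poxviruses. Neither was called by edgeR, DESeq2 or limma-voom, and 0 had an unadjusted p under 0.05 by edgeR. SAMD9L was at 10.4, 11.6 and 6.17 CPM in the controls and at 12.0, 11.1 and 12.2 CPM with USAG-1 overexpression. Only control replicate 3 stood below the rest, and the log2 fold change was 0.32 (SE 0.21, edgeR adjusted p = 0.355), or 0.10 without that library. SAMD9 had a log2 fold change of 0.25 (95% interval -0.22 to 0.72).

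Of the regulators, STAT2 and IRF9 are parts of the complex that type I interferons activate, and IRF1 drives a partly separate set of genes. Of the 3, 0 were called by edgeR, DESeq2 or limma-voom, and 2 had an unadjusted p under 0.05 by edgeR. STAT2 (ENSG00000170581, chromosome 12, 56341597 to 56360203) was at 34.8, 36.1 and 26.3 CPM in the controls and at 42.9, 37.1 and 41.5 CPM in the USAG-1-overexpressing libraries. The groups did not overlap, yet STAT2 was not called (log2 fold change 0.32, SE 0.12, edgeR adjusted p = 0.118). Without control replicate 3, its lowest library, the log2 fold change of STAT2 was 0.20. Over all alternatives it ran from 0.20 to 0.41, and the adjusted p from 0.0656 to 0.3. IRF9 (ENSG00000213928, chromosome 14, 24161234 to 24168043) was at 7.74, 10.03 and 6.87 CPM in the controls and at 10.5, 11.9 and 10.5 CPM with USAG-1 overexpression. It was likewise higher in all 3 libraries without being called (log2 fold change 0.41, SE 0.16, edgeR adjusted p = 0.118), and it was called without control replicate 2, at 0.58. The adjusted p of IRF9 ran from 0.0475 to 0.31 over all alternatives. IRF9 overlaps a longer gene on the same strand, ENSG00000259529, so its counts are uncertain. IRF1 (ENSG00000125347, chromosome 5, 132440440 to 132496467) was at 77.4, 71.5 and 82.5 CPM in the controls and at 62.6, 69.3 and 72.8 CPM with USAG-1 overexpression. These overlapped at the margin (log2 fold change -0.18, SE 0.08, edgeR adjusted p = 0.183), and the antisense gene IRF1-AS1 lies across it.

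Many members are neighbours on a chromosome, and their count ratio within a library does not depend on its depth. Of the 14 pairs of members next to each other and at most 100000 bases apart, the ratios of 7 did not overlap between the groups. The same held for 32.9% of the 13847 pairs of consecutive genes in the whole table. The ratio of IFIT1 to IFIT5 counts was 0.312, 0.317 and 0.257 in the controls and 0.656, 0.832 and 0.648 with USAG-1 overexpression. The 2 genes lie 8081 bases apart, and the ratio was higher in all 3 USAG-1-overexpressing libraries (two-sided exact permutation test, p = 0.1, the smallest that 3 libraries against 3 allow). IFI44L to IFI44 gave 1.39, 1.27 and 1.11 in the controls and 0.728, 0.769 and 0.674 with USAG-1 overexpression, and CMPK2 to RSAD2 gave 0.853, 0.778 and 0.876 and then 0.336, 0.537 and 0.459. OAS3 to OAS2 gave 52.6, 55.2 and 59.9 in the controls and 96.9, 82.5 and 116 with USAG-1 overexpression. For each of these 3 pairs the exact permutation p was again 0.1. Any pair without overlap gets that value in this test, so it adds nothing to the absence of overlap. The pairs were chosen after their values were seen. OAS1 to OAS3, which both rose, gave 0.0499 to 0.0596 in the controls and 0.0549 to 0.06 with USAG-1 overexpression, with overlap (exact permutation p = 0.8). RSAD2 and CMPK2, PARP9 and DTX3L, TRIM22 and TRIM5, and EIF2AK2 and GPATCH11 overlap on opposite strands. The labels describe libraries that mark the strand, but whether the counting used it is not given in the sources used here, so the counts of these genes are uncertain.

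Upstream of these genes, interferon transcripts were at or near 0. Of 21 interferon ligand genes listed, 6 were in the table and none had enough counts to be tested. IFNB1 had 0 counts in all 6 libraries. IFNG had 0, 11 and 13 counts in the controls, and with USAG-1 overexpression all 6 ligand genes had 0, which allows up to 0.0695 CPM each in a library. Of 15 receptors, kinases and brakes of the pathway, 2 were lower (13.3%), beside 6.91% of all genes. The chains IFNAR2 and IFNGR2, of the type I and the interferon gamma receptor, fell, with log2 fold changes of -0.48 (SE 0.08, edgeR adjusted p = 0.00633) and -0.56 (SE 0.11, edgeR adjusted p = 0.0106).

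Beside the 42 members, 45 other interferon-induced genes were tested, with a median log2 fold change of 0.01. Of these, 7 were higher (15.6%), beside 8.95% of all genes, and 5 lower (11.1%), beside 6.91%. Every USAG-1-overexpressing library was above every control in 33.3% of them, against 19.4% of all genes, and below in 26.7%, against 18.1%. C1S, a complement protease, and IFI16, a DNA sensor, rose, with log2 fold changes of 0.51 (SE 0.07, edgeR adjusted p = 0.00263) and 0.45 (SE 0.07, edgeR adjusted p = 0.00634). TNFSF10, the death ligand TRAIL, went from 231 ± 7.38 to 167 ± 6.20 CPM (SD, n = 3 each; log2 fold change -0.47, SE 0.06, edgeR adjusted p = 0.0017). CCL5, a chemokine that is also among the T and NK cell markers, had a log2 fold change of -2.03 (SE 0.24, edgeR adjusted p = 0.00173). ADAR, the highest in CPM, had a log2 fold change of 0.03 (SE 0.05, edgeR adjusted p = 0.72). Of 12 sensors and inducers of interferon tested, 1 was higher (8.33%), near the 8.95% of all genes, and 0 were lower. It was DDX58, which encodes the RNA sensor RIG-I, at 18.8, 15.0 and 13.4 CPM in the controls and at 30.5, 28.4 and 26.2 CPM with USAG-1 overexpression, and it was higher in all 3 (log2 fold change 0.85, SE 0.13, edgeR adjusted p = 0.00457). MAVS, its adaptor and the highest of these in CPM, had a log2 fold change of -0.16 (SE 0.05, edgeR adjusted p = 0.0797). Of 15 genes of MHC class I antigen presentation, 1 was lower (6.67%), near the 6.91% of all genes, and 0 were higher. It was the peptide transporter TAP1 (log2 fold change -0.32, SE 0.08, edgeR adjusted p = 0.0326).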

How the data were processed

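The authors deposited whole-number counts per gene for all 6 libraries in 1 table, which were used as counts although its name speaks of FPKM. The submitters' processing notes name cutadapt 1.9, FastQC and hg38, and the aligner, the counting and its use of strand are not given in the sources used here. After filterByExpr and TMM scaling, the test was that of edgeR 4.0.16 in R 4.3.3 (glmQLFit and glmQLFTest, Benjamini-Hochberg, no replicate block). The SE is the log2 fold change over the square root of F. Alternatives used DESeq2 1.42.0, limma 3.58.1, other scalings and filters, a replicate block and each library left out, and were followed for the members and not for genes of other lists. Pairs of neighbouring members were compared by exact permutation, chosen after the values were seen. The members and lists were chosen with earlier results of these data known. Values in every library are given for members called, for regulators and for the member with the smallest p of each role, with others chosen after their values were seen. On simulated counts for 17697 genes, edgeR recovered 55.6% of 81 genes changed by 0.585 (log2), 74.1% of 58 changed by 1 and 95.1% of 61 changed by 2, and 6.41% of its calls were false. B cell markers (6 tested) and platelet and erythroid markers (5 tested) had 0 calls by edgeR, with 1 and 0 at an unadjusted p under 0.05. Results for some genes of the lists are not reported here.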

Additional observations from a re-analysis of the deposited data

How the results depend on the processing

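The number of all genes called was 2884 and ran from 1137 to 5091 when 1 library was left out, with the highest number without control replicate 3. Members called higher ran from 5 to 13 and members called lower from 0 to 6 over the same fits. DESeq2's Wald test called 11 members higher and 6 lower (5.8% and 4.55% of all genes in that fit), no filter on low counts 7 and 1 (3.59% and 2.67%), and at least 10 counts in every library 10 and 5 (10.5% and 8.44%). The shares for DESeq2's Wald test and for no filter are over 32507 genes, against 18188 in the main fit. They include genes with too few counts for the main fit, so they are not comparable with the other shares. Library sizes alone gave 8 and 2 (9.46% and 6.6%), and DESeq2's size factors, limma-voom and library sizes without mitochondrial transcripts each gave 10 and 3 (8.69% and 6.97%, 9.08% and 6.83%, and 9.15% and 6.56%). The cause of these differences was not tested. The median log2 fold change of the members ran from 0.09 to 0.14 over all alternatives. With the replicate number as a block, 2381 genes, 9 members higher and 4 lower were called, beside 7.43% and 5.66% of all genes. OAS1, USP18 and IFIT5 were then not called, and DDX60, IFITM1 and TRIM22 were. Same-numbered libraries deviated from their group means with correlations across genes of 0.0701, -0.0544 and 0.0371. Control replicate 2 correlated better with USAG-1-overexpressing replicate 1 (0.0991) than with its own number. Correlations over all pairings of a control with a USAG-1-overexpressing library ran from -0.14 to 0.107. The labels do not say whether a number marks a shared batch, and this was not tested. Depth limits XAF1, IFI27, MX2, ISG20 and MX1 most, since these had the fewest counts of the members.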

Other observations

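Haemoglobin transcripts, which mark red cells and their precursors, varied between libraries in another way than the interferon-stimulated genes. HBB had 144, 3475 and 134 counts in the controls and 2368, 90 and 344 in the USAG-1-overexpressing libraries. Control replicate 2 and USAG-1-overexpressing replicate 1 were thus high, and HBA1 and HBA2 were highest in the same libraries, HBA2 with 52, 1002 and 124 and then 658, 135 and 206 counts. Summed over the 5 platelet and erythroid markers, the level was 8.19, 109 and 10.7 CPM in the controls and 76.8, 8.43 and 19.7 CPM with USAG-1 overexpression. Their part in any result above was not tested.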
